A study of Mus musculus with 16 samples.

Results

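The RNA of *Jarid2* was followed through RADIP, a method that joins an RNA to nearby chromatin DNA with a bridge adaptor inside fixed nuclei. *Jarid2* (ENSMUSG00000038518.15) lies on the plus strand of mouse chromosome 13, at chr13:44729474-44921643 of mm10, and is 192.17 kb long. Its members were all pairs whose RNA tag carries this gene name: 7046 of 1305107 significant pairs in Input and 7961 of 1415135 in H3K27me3-RADIP. It was 1 of 10176 RNA names in Input and 1 of 10660 in H3K27me3-RADIP.

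Both groups were mESCs of the line PGK12.1, grown in serum with Leukemia Inhibitory Factor and fixed with 1% formaldehyde. For H3K27me3-RADIP, the joined molecules were selected with an antibody against H3K27me3, and for Input a portion was set aside before that step. The labels list 8 libraries per condition, which the authors merged into 1 table of significant pairs each. The study describes fewer biological replicates than libraries, and the labels do not say which libraries belong to the same replicate. No error between replicates can therefore be given. Intervals are 95% intervals that cover counting error only, and each test compares 2 merged libraries, not the conditions. Of 14 stem cell markers, 6 had pairs in both tables, among them *Esrrb* (2388 pairs in Input and 2500 in H3K27me3-RADIP) and *Tfcp2l1* (441 and 484). *Zfp42* had 130 and 98 pairs (log2 ratio of shares -0.52, -0.92 to -0.14) and *Sall4* 22 and 52 (1.12, 0.38 to 1.91). *Sox2* had 8 pairs in H3K27me3-RADIP and was not listed in Input, and 7 markers, including *Pou5f1* and *Nanog*, were listed in neither table.

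JARID2 is a DNA-binding cofactor of PRC2, the Polycomb complex whose catalytic subunit EZH2 places methyl groups on lysine 27 of histone H3. The core of PRC2 also holds EED, which reads the mark, SUZ12, the scaffold, and the histone-binding proteins RBBP4 and RBBP7. JARID2 and AEBP2 mark one form of the complex, and MTF2, PHF1, PHF19, EPOP and LCOR mark another. In embryonic stem cells JARID2 helps to place PRC2 at CpG-rich promoters of developmental genes. What was measured here is the RNA of the *Jarid2* gene on chromatin, not the protein.

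The RNA tags that came back most often all lay in the first intron, close to the 5′ end of the gene. They are shown because a single stretch of this transcript was joined to many places on the chromosome. All are on the plus strand of mm10 and their sequences were read from the RefSeq copy of this genome build. The capitals in tags 2 and 3 mark the 22 bases that they share.
tag 1, chr13:44733432-44733456: gcggtggctgtgcgaggcagagcgt
tag 2, chr13:44739656-44739680: cttGCACTTGTACTGTTGATCCTGA
tag 3, chr13:44739659-44739683: GCACTTGTACTGTTGATCCTGActt
tag 4, chr13:44739540-44739564: aagatcacactcttacgtgtacctg
tag 5, chr13:44746983-44747007: tccaggagactcgctgaacttgtca
tag 6, chr13:44743169-44743193: tgtagaattactgactgaagtgtac

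Tag 1, with 18 G or C among its 25 bases, lay 3.97 kb into the gene. In Input it made 43 pairs, with 42 DNA positions in 36 bins of 25 kb. In H3K27me3-RADIP it made 45, with 39 positions in 32 bins. Tag 2 was joined to 27 bins by 31 pairs in Input, and to 30 bins by 35 pairs in H3K27me3-RADIP. The DNA ends of these pairs were thus spread over many bins in both libraries. Tag 4 had 23 pairs in Input against 10 in H3K27me3-RADIP, and tag 6 had 12 and 18. Such repeated tags were the exception. The *Jarid2* pairs used 5097 RNA tag positions in Input, 78.8% of them once, and 5534 in H3K27me3-RADIP, 76.02% of them once.

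*Jarid2* was among the most frequent RNAs on chromatin in both libraries. By number of pairs it ranked 6 in Input and also 6 in H3K27me3-RADIP, where the median RNA had 29 and 27 pairs. Per kb of gene it had 36.7 pairs in Input, rank 3 of 3471 pcRNAs with at least 50 pairs, and 41.4 in H3K27me3-RADIP, rank 5 of 3445. Only pcRNAs with a gene length in the annotation used here were ranked. The medians over these pcRNAs were 2.12 and 2.10 pairs per kb. This frequency was nearly the same with and without the antibody step. *Jarid2* made up 0.540% of Input (0.527 to 0.553) and 0.563% of H3K27me3-RADIP (0.550 to 0.575). The ratio of these shares was 1.04-fold, or 0.06 on the log2 scale (0.01 to 0.11; 2-sided Fisher's exact test, p = 0.0140 after Benjamini-Hochberg adjustment over 6 *Jarid2* shares). Restricted to RNA and bin combinations listed in both tables, the log2 ratio was 0.03 and no longer passed (Fisher's exact test, p = 0.247 unadjusted). A log2 ratio of at least 0.5 in either direction was reached by 25.1% of 3313 RNAs with at least 50 pairs in both tables. *Jarid2* was not among them, at rank 1306, with the median RNA at -0.05.

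What differed between the libraries was where on chromosome 13 the RNA was found. Of the *cis* pairs, with both tags on the same chromosome, those over 100 kb apart were 69.5% in Input (68.4 to 70.6, 4897 of 7046), and after the antibody step 81.4% (80.5 to 82.2, 6470 of 7951). The gain was 11.9 percentage points (10.5 to 13.2; Fisher's exact test, adjusted p = 5.95e-64). All other RNAs together had 36.2% and 43.4% of their *cis* pairs at this range. Among frequent RNAs, those with 1000 or more *cis* pairs in the table, the median was 57.7% in Input, with *Jarid2* at rank 27 of 200. Most of these RNAs had fewer pairs than *Jarid2*, so the set is not matched to it in frequency. In H3K27me3-RADIP the median was 63.1%, with *Jarid2* at rank 4 of 235. Among 188 RNAs that had 1000 or more *cis* pairs in each table, 175 had a higher long-range share in H3K27me3-RADIP. The median change was 5.28 points and *Jarid2* ranked 15. Among the 3313 RNAs with at least 50 pairs in both tables it ranked 797, with a median change of 5.15 points.

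The pairs over 1 Mb also took a larger share. They rose from 26.3% of *cis* pairs (25.3 to 27.4) to 36.4% (35.3 to 37.4), by 10.04 points (8.56 to 11.5; Fisher's exact test, adjusted p = 1.21e-39). In other RNAs together the shares were 4.50% and 7.16%, and the medians over RNAs with 1000 or more *cis* pairs were 4.97% and 5.32%. *Jarid2* alone supplied 3.09% of all pairs over 1 Mb in Input and 2.80% in H3K27me3-RADIP. Over bins listed in both tables only, the gain over 1 Mb was 4.09 points, and that over 100 kb was 10.7. The test of the pairs over 1 Mb also counts bins listed in 1 table only, so its p-value includes the listing step.

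**Figure D1:**
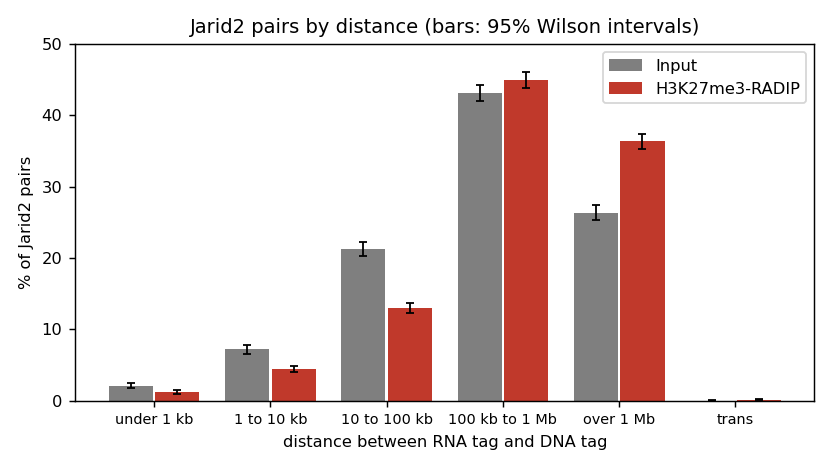
Share of *Jarid2* pairs, in percent of all its pairs, by distance between RNA tag and DNA tag, for Input (grey) and H3K27me3-RADIP (red) with 95% Wilson intervals. The 3 classes under 100 kb were lower in H3K27me3-RADIP, and the class over 1 Mb was 26.3% against 36.3%.

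Scaled to all pairs of each library, listed pairs were fewer in the near classes and more in the far class. Under 1 kb, 147 pairs in Input compared with 93 in H3K27me3-RADIP, a log2 ratio of -0.78 (-1.17 to -0.39). From 1 to 10 kb there were 506 and 354 pairs (-0.63, -0.83 to -0.43), and from 10 to 100 kb 1496 and 1034 (-0.65, -0.77 to -0.53). These 3 classes were lower by nearly the same factor. From 100 kb to 1 Mb the counts were 3041 and 3577 (0.12, 0.05 to 0.19), and over 1 Mb 1856 and 2893 (0.52, 0.44 to 0.61). The class over 1 Mb mixes in bins listed in only 1 table, and in bins listed in both it had 1450 and 1770 pairs (0.17, 0.07 to 0.27). The median distance went from 408 kb in Input to 665 kb in H3K27me3-RADIP, and the longest pairs spanned 15273 and 28536 kb. Pairs that repeated both tag positions of another pair were 7.29% of the *Jarid2* pairs in Input and 10.3% in H3K27me3-RADIP. With these counted once, the gain over 100 kb was 11.98 points.

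*Jarid2* RNA was found in 209 bins of 25 kb in Input and 270 in H3K27me3-RADIP. Of these, 170 were in both tables, which is 81.3% of the Input bins and 63.0% of the H3K27me3-RADIP bins. Over all RNAs, 75.8% and 66.1% of RNA and bin combinations were shared. No listed *Jarid2* bin had fewer than 9 pairs in either table, so a bin missing from a table is not a count of 0 there. The pairs per shared bin followed each other closely (Pearson r = 0.92 of log2 pairs and Spearman rho = 0.91 over 170 bins, which share the decay with distance). Around the gene the bins formed an unbroken block. In Input it ran for 3.1 Mb (124 bins), reaching 1700 kb upstream and 1200 kb downstream of the gene's bins. In H3K27me3-RADIP it ran for 3.8 Mb (152 bins), with 2150 kb upstream and 1450 kb downstream. The whole span from first to last bin was 22.55 and 49.5 Mb.

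**Figure D2:**
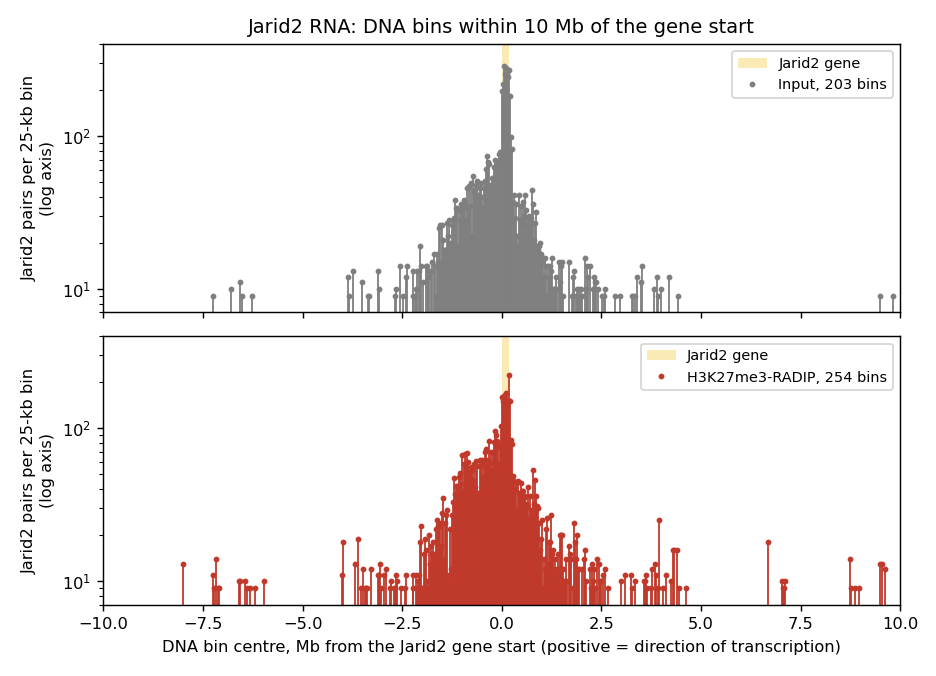
*Jarid2* pairs per 25-kb bin (log axis) against the distance of the bin from the gene start in Mb, positive in the direction of transcription, for Input (203 bins in view) and H3K27me3-RADIP (254 bins in view). The gene is shaded. Pairs peaked over the gene in both libraries, and H3K27me3-RADIP had more single bins far out on both sides.

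The pairs over the gene itself went down. The 8 bins that the gene touches held, from its 5′ to its 3′ end, 197, 218, 288, 255, 277, 255, 242 and 270 *Jarid2* pairs in Input. In H3K27me3-RADIP they held 160, 150, 162, 165, 170, 145, 154 and 222. Each bin was lower in H3K27me3-RADIP, and only the last bin there (222) exceeded the lowest bin of Input (197). Their sum fell from 2002 to 1328, a log2 ratio of -0.71 (-0.81 to -0.61), and the single bins ranged from -0.95 to -0.40. By the interval of the log2 ratio, all 8 were called lower. Of the 48606 combinations that both tables list, 7.73% were called lower and 3.64% higher. Of 25220 combinations whose bin touches the RNA's own gene, 13.05% were called lower. Of the 462 among these with at least 100 pairs in each table, 27.5% were.

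The share of pairs with the DNA tag outside the gene rose accordingly, from 72.4% (71.3 to 73.4) to 83.9% (83.0 to 84.7), by 11.5 points (10.2 to 12.8; Fisher's exact test, adjusted p = 1.40e-64). A loss inside the gene was common among frequent RNAs. Of the 188 RNAs above, 186 have a gene of the same name in the annotation used here, and 171 of these had a lower share inside their own gene in H3K27me3-RADIP. The median change was -6.58 points against -11.5 for *Jarid2*, the 32nd largest fall. As a log2 ratio scaled to the libraries, pairs inside *Jarid2* were at -0.72, the 8th lowest of the 186, where the median was -0.22.

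**Figure D3:**
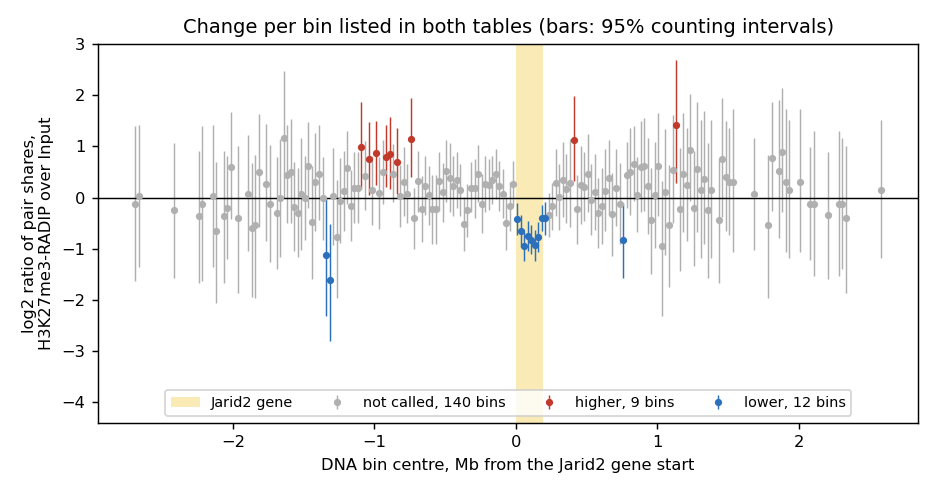
Log2 ratio of the pair share, H3K27me3-RADIP over Input, for 161 bins listed in both tables within 3 Mb of the *Jarid2* gene start, with 95% counting intervals. Bins called higher are red (9), bins called lower are blue (12), and the gene is shaded. The 8 gene bins lay below 0, and 7 of the higher bins lay upstream of the gene.

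Outside the gene, the listed pairs were more on both sides, in part through bins found in H3K27me3-RADIP only. Upstream they went from 3078 in 102 bins to 3994 in 128 (log2 ratio 0.26, 0.19 to 0.33), and downstream from 1966 in 99 bins to 2629 in 133 (0.30, 0.22 to 0.39). These sums cover bins that were called separately in each library. In the 89 upstream bins listed in both tables, 2941 pairs compared with 3558 (0.16, 0.09 to 0.23). In the 73 shared bins downstream, 1697 compared with 1942 (0.08, -0.02 to 0.17), which is within counting error. Of the *cis* pairs outside the gene, the upstream side took 60.7% in Input (59.3 to 62.0) and 60.2% in H3K27me3-RADIP (59.0 to 61.3). The lean towards the upstream side was therefore alike in both. Most shared bins were not called singly: upstream, 7 of 89 were higher and 2 lower, and downstream, 2 of 73 were higher and 2 lower. Over all RNAs, 4.80% of 22768 combinations whose bin does not touch the RNA's own gene were called higher and 1.95% lower. The 9 higher and 4 lower of 162 for *Jarid2* lay near this background.

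Since the calls outside the gene lay near the background, the called bins are given as positions only, not as a pattern of *Jarid2*. The higher bins upstream lay between 725 and 1075 kb from the gene's bins. The largest ratio among them was at 725 kb, where 22 pairs in Input stood against 53 in H3K27me3-RADIP (1.15, 0.41 to 1.94). The bin 900 kb upstream, over the 3′ part of *Cd83*, had 36 and 68 pairs (0.80, 0.20 to 1.43). *Cd83*, which encodes a surface protein of activated immune cells, is the nearest protein-coding gene upstream, 926.342 kb away, and its own RNA had 10 pairs in H3K27me3-RADIP and was not listed in Input. Both lower bins upstream lay at 1300 and 1325 kb, over *Ranbp9* and *Nol7* (28 and 10 pairs) and over *Nol7* and *Sirt5* (22 and 11 pairs). These 3 genes were named after their values were seen.

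On the other side, *Dtnbp1*, a subunit gene of the BLOC-1 complex of lysosome-related organelles, lies on the minus strand and ends 0.432 kb from the end of *Jarid2*. The bin next to the *Jarid2* gene, inside *Dtnbp1*, had the most *Jarid2* pairs of any bin outside the gene in both tables. It fell from 184 to 151 pairs (-0.40, -0.72 to -0.08). The next bins along *Dtnbp1* had 98 and 84 pairs, and then 82 and 79, and neither was called. Further down, again among calls near the background rate, the bin at 200 kb rose from 19 to 45 pairs (1.13, 0.32 to 1.98). Another at 550 kb fell from 44 to 27 pairs (-0.82, -1.57 to -0.10). One at 925 kb, in *Atxn1*, rose from 9 to 26 (1.41, 0.27 to 2.69). In each table, the other 7 of the 10 bins with the most pairs outside the gene lay upstream, and the genes that start in them carry only systematic names. *Gm34276* was met in both tables, *Gm33958* in that of Input and *Gm47805* in that of H3K27me3-RADIP. The *Gm34276* bin had 70 pairs in Input against 96 in H3K27me3-RADIP and was not called.

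More listed pairs in H3K27me3-RADIP went with more listed bins in the far windows. Within 500 kb upstream, all 20 bins were listed in both tables, with 1203 pairs in Input and 1428 in H3K27me3-RADIP (log2 ratio 0.13, 0.02 to 0.24). Downstream, the first 500 kb had 904 and 963 pairs (-0.03, -0.16 to 0.11). From 2000 to 5000 kb, the pairs went from 254 to 377 upstream (0.45, 0.22 to 0.69) and from 240 to 410 downstream (0.66, 0.42 to 0.89). From 5000 to 10000 kb upstream, Input listed 5 bins with 48 pairs, and H3K27me3-RADIP listed 13 with 132 (1.34, 0.86 to 1.85). On the downstream side the same range held 3 bins with 27 pairs and 15 bins with 164 pairs (2.49, 1.89 to 3.13). Only 2 of these downstream bins were in both tables, with a median log2 ratio of 0.22. The window sums take an unlisted bin as 0, though it may hold up to 8 pairs. Their intervals therefore do not cover the listing step and are no measure of a change. In that range the median per listed bin was 9 and 10 pairs on both sides. The bins listed in both tables did not show this gain. In the 24 shared bins at 2 Mb or more, 267 pairs in Input compared with 272 in H3K27me3-RADIP (-0.09, -0.34 to 0.16), and none was called.

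Of the bins found in 1 table only, 100 were in H3K27me3-RADIP, with a median of 10 pairs and a maximum of 25, and 39 were in Input, with a median of 10 and a maximum of 14. At 2 Mb or more from the gene there were 58 bins in Input and 109 in H3K27me3-RADIP, with 24 in both. The genes in the distant bins were looked up after the values were seen, for the 10 bins with the most pairs among those listed in 1 table only. The bin with the most pairs found only in H3K27me3-RADIP, chr13:48650001-48675000, holds *Barx1*, a homeobox gene of jaw and stomach development, and had 25 pairs from 22 distinct pairs of positions (q = 3.48e-13). It lies 3.725 Mb downstream. The listed pairs of all other RNAs in the *Barx1* bin went from 8 of 1 RNA in Input to 105 of 6 RNAs.

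The bin of *Gcm2*, a transcription factor gene of the parathyroid gland, and *Sycp2l* followed with 19 pairs (14 distinct), 3.6 Mb upstream, where other RNAs had 16 listed pairs in each table. The bin of *Tfap2a*, the AP-2 alpha transcription factor gene of the neural crest, had 18 pairs (18 distinct), 3.975 Mb upstream, and other RNAs had no listed pairs there in Input and 38 in H3K27me3-RADIP. A bin with *S1pr3*, a sphingosine-1-phosphate receptor gene, had 18 pairs (14 distinct), and other RNAs had 19 listed pairs in Input against 22. In *Wnk2*, a kinase gene, 3 bins had 16 pairs each. The last 3 of the 10 had 14 pairs each: the bin of the homeobox gene *Msx2*, 8.525 Mb downstream, the bin of *Dek* and *Rnf144b*, and a bin with no protein-coding gene 7.15 Mb upstream.

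Among the bins at this range listed only in Input, the 10 with the most pairs had 11 to 14. The last place was a tie of 3 bins with 11 pairs, of which the *Elovl2* bin was taken by its position, leaving out a bin at *Dek* and *Kdm1b* and one with no protein-coding gene. They lay in or at *Hivep1*, *Gcnt2*, *Ptpdc1*, *Fam120a*, *Slc28a3* and *Elovl2*, and 4 held no protein-coding gene. No list of developmental genes was tested against these bins.

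The tables held few *trans* pairs of *Jarid2*. They list only pairs that passed the authors' background model, which was built on *trans* interactions, so the number before that step is not known from them. Input listed 0, and H3K27me3-RADIP listed 10. All 10, from 9 distinct pairs of positions, fell into one bin, chr11:3150001-3175000, over *Sfi1* and *Gm11400* (q = 0.00813). That bin held 35 RNAs in H3K27me3-RADIP, 28 of them from other chromosomes, and 13 in Input, 9 of them from other chromosomes. No bin in either table held more RNAs from other chromosomes, and the median bin with any held 1. The *Jarid2* pairs there came from a bin shared with many other RNAs.

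Over its own gene, almost all listed pairs were those of *Jarid2* RNA. An RNA that is not listed in a bin may still have had pairs there that did not pass the authors' model. In the 8 gene bins, *Jarid2* made up 98.9% of 2024 pairs in Input and 98.7% of 1346 in H3K27me3-RADIP. The only other RNAs listed were *Dtnbp1*, with 13 pairs in Input and 18 in H3K27me3-RADIP, and the abundant nuclear lncRNA *Malat1*, with 9 pairs in Input. All of them were in the last bin, so 7 of the 8 listed no other RNA in either table.

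In the 300 bins outside the gene, other RNAs had 3884 pairs in Input against 5035 in H3K27me3-RADIP, a log2 ratio of 0.26 (0.20 to 0.32). No conclusion is drawn from this sum, since 99 of the bins entered through H3K27me3-RADIP alone and 39 through Input alone. *Jarid2* made up 56.5% and 56.8% of all pairs in these bins, and 79 of them listed no other RNA in either table. The pairs of other RNAs, again summed over listed combinations, are therefore given by class of bin. In the 99 bins outside the gene where *Jarid2* was listed only in H3K27me3-RADIP, their pairs went from 1291 to 2080 (0.57, 0.47 to 0.67). Bins with *Jarid2* in both tables had 1620 and 2019 pairs of other RNAs (0.20, 0.11 to 0.30). Where *Jarid2* was listed only in Input, the counts were 973 and 936 (-0.17, -0.30 to -0.04). Over the 26 shared bins outside the gene with at least 20 pairs of other RNAs in both tables, the log2 ratio of *Jarid2* and that of the other RNAs had a Pearson r of 0.55 and a Spearman rho of 0.40. These bins share the library totals and, in part, the same RNAs. The part that the amount of DNA recovered from each bin has in these values was not tested.

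On the RNA side, every *Jarid2* tag lay on the strand of the gene, and most were intronic. Intron labels were on 95.1% of pairs in Input (94.6 to 95.6) and on 95.4% after the antibody step (94.9 to 95.9). These shares differed by 0.31 points (-0.37 to 1.00; Fisher's exact test, adjusted p = 0.375). Per length, introns and exons of the principal transcript (ENSMUST00000173246.7, 18 exons) were close, with 36.8 and 33.5 pairs per kb in Input and 41.6 and 38.2 in H3K27me3-RADIP. The first intron, 91.463 kb long, carried 63.0% of the pairs in Input (4437, or 48.5 per kb) and 64.2% in H3K27me3-RADIP (5114, or 55.9 per kb).

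**Figure D4:**
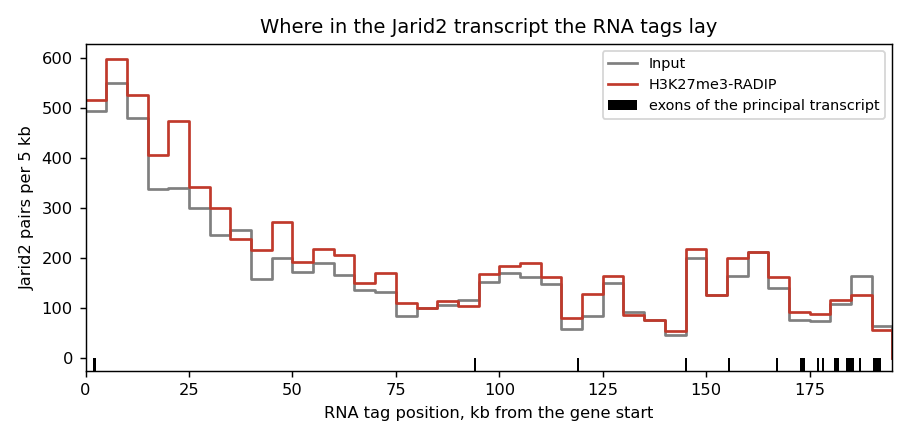
*Jarid2* pairs per 5 kb of the gene against the position of the RNA tag in kb from the gene start, for Input (grey) and H3K27me3-RADIP (red), with exons of the principal transcript in black at the bottom. Both libraries peaked in the second stretch from the start, with 551 and 599 pairs. The stretch that starts 20 kb into the gene had 341 and 475, and the one that starts at 185 kb had 165 and 126.

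Tags were most frequent near the 5′ end. With the gene divided into 4 stretches of equal length, the first held 3301 pairs in Input (68.7 per kb) and 3804 in H3K27me3-RADIP (79.2 per kb). In the other stretches, Input had 23.4 to 28.0 pairs per kb and H3K27me3-RADIP 26.5 to 30.6. Long reach was not a property of a single stretch. DNA tags over 1 Mb from the gene were 25.1%, 26.6%, 21.9% and 21.5% of the pairs of the 4 stretches in Input, from 5′ to 3′. In H3K27me3-RADIP they were 34.1%, 37.4%, 30.5% and 28.9%, higher than Input in each. Exonic tags, which can come from spliced RNA, reached outside the gene in 70.1% of 344 pairs in Input (65.0 to 74.7) and 78.3% of 364 in H3K27me3-RADIP (73.8 to 82.2). For intronic tags these shares were 72.5% and 84.1%.

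DNA tags lay downstream of their RNA tag in 49.9% of *cis* pairs in Input (48.7 to 51.1) and 45.6% after the antibody step (44.5 to 46.7), a change of -4.27 points (-5.87 to -2.67; Fisher's exact test, adjusted p = 2.61e-07). Divided by place, neither portion had an interval that left out 0. Inside the gene the downstream shares were 77.6% and 75.6%, a difference of -1.95 points (-4.97 to 1.01). Outside, they were 39.3% and 39.8%, a difference of 0.51 points (-1.27 to 2.29). Divided by distance, pairs within 100 kb had shares of 73.6% and 70.6%, a difference of -3.06 points (-6.04 to -0.10). Pairs over 100 kb had 39.5% and 39.9%, a difference of 0.43 points (-1.39 to 2.24).

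The RNAs of the other PRC2 genes were far less frequent on chromatin and mostly lower in H3K27me3-RADIP. Of 13 other members of the list, 10 had pairs in both tables, with 1.13 to 11.4 pairs per kb in Input and 0.736 to 7.27 in H3K27me3-RADIP. Of 9 with at least 50 pairs in both, 6 were lower by a log2 ratio of at least 0.5, 0 were higher and 3 were neither. Over all RNAs tested, 16.3% were lower and 8.75% higher. The median log2 ratio of the list was -0.88, against -0.05 over all 3313.

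Among the core subunits, *Ezh2* had 96 pairs in Input against 52 in H3K27me3-RADIP (-1.001, -1.52 to -0.50), and *Eed* had 169 and 63 (-1.54, -1.98 to -1.11). *Suz12* had 149 and 88 (-0.88, -1.27 to -0.49) and *Rbbp4* 97 and 61 (-0.79, -1.27 to -0.31). *Rbbp7* had 119 and 106 pairs and was not called. All 4 called core RNAs lay below Input with intervals that left out 0. Of the accessory factors, *Mtf2* had 496 and 266 pairs (-1.02, -1.24 to -0.80) and *Lcorl* 202 and 118 (-0.89, -1.23 to -0.56). *Aebp2*, the partner of *Jarid2* in its form of PRC2, had 220 and 206 (-0.21, -0.49 to 0.07), and *Lcor* had 482 and 579 (0.15, -0.03 to 0.33). *Ezh1*, the other catalytic subunit gene, had 40 and 27 pairs and was below the minimum. *Phf19* was listed only in H3K27me3-RADIP, with 21 pairs, and *Phf1* and *Epop* in neither table.

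**Figure D5:**
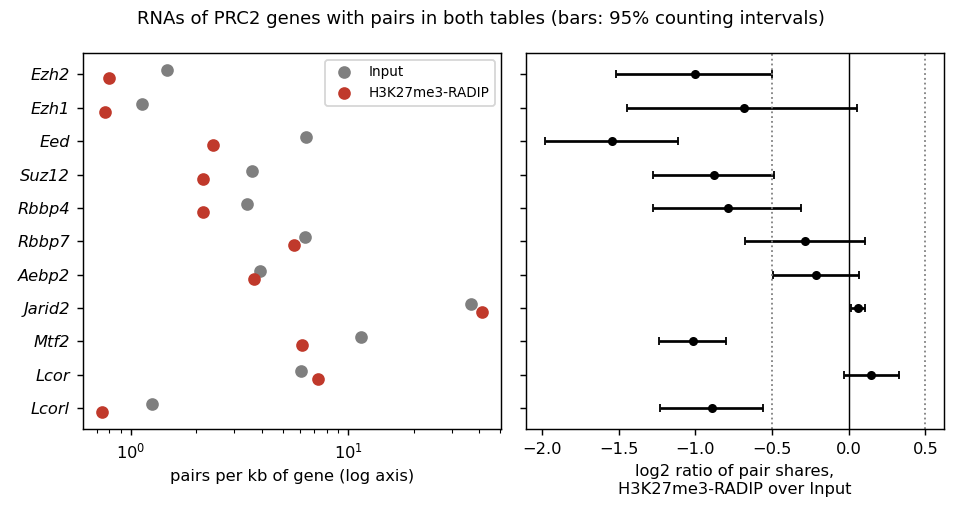
Left, pairs per kb of gene (log axis) for *Jarid2* and the 10 other PRC2 genes with pairs in both tables, in Input (grey) and H3K27me3-RADIP (red). Right, log2 ratio of pair shares with 95% counting intervals, with dotted lines at -0.5 and 0.5. *Jarid2* had the most pairs per kb, and 6 of 9 tested other members lay below -0.5.

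Together the 13 other members had 380 pairs over 100 kb in Input and 522 in H3K27me3-RADIP, against 4897 and 6470 for *Jarid2*. Most of theirs were from *Lcor*, with 209 and 337. In share, *Lcor* had 43.4% and 58.2% of its *cis* pairs at this range, *Mtf2* 15.1% and 37.2%, and *Lcorl* 16.8% and 42.4%. *Eed* had 9.47% and 12.7%, *Suz12* 5.37% and 10.2%, and *Aebp2* 9.55% and 9.22%. *Rbbp4* had 17.5% in Input and 0 in H3K27me3-RADIP, and *Ezh2*, *Ezh1* and *Rbbp7* had none in either.

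The RNAs whose distances were most like those of *Jarid2* came from other long genes. Over 6 distance classes in both tables, *Exoc4*, an exocyst subunit gene, differed from *Jarid2* by 17.4 points in sum, *Magi1*, a scaffold protein gene of cell junctions, by 19.4, and *Fto*, an RNA demethylase gene, by 20.3. The median over 1241 RNAs with at least 200 pairs in both tables was 149. *Exoc4* had 74.7% of *cis* pairs over 100 kb in Input and 82.7% in H3K27me3-RADIP. *Magi1* had 76.1% and 81.2%, and *Fto* 77.7% and 80.2%. Over 1 Mb, their shares were 30.6% and 39.7%, 27.04% and 38.3%, and 30.8% and 35.5%. The genes of all 3 are longer than *Jarid2*, at 724.895, 608.463 and 354.915 kb.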

How the data were processed

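The authors split each read at the bridge adaptor, aligned RNA and DNA tags by BWA 0.7.15-r1140 against mm10, retained pairs with unique positions, named the RNA from GENCODE genes, assigned DNA tags to 25-kb bins and removed blacklisted regions. Libraries of a condition were merged. The deposited values are p-values and q-values (adjusted p-values) per RNA and bin from a negative binomial background model, and the authors kept q-values up to 0.1. Lines of the tables were counted as pairs. The mapped tag coordinates, deposited as start and end of each tag, are the other values used here.

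Tag centres gave distances. Shares had Wilson intervals, differences Newcombe intervals and log2 ratios exact conditional binomial intervals, and shares were compared by 2-sided Fisher's exact tests. A bin was called where the interval left out 0. The rule was also run on simulated Poisson counts, which had no listing step, repeated positions or spread between replicates. That run therefore does not show how often the rule calls wrongly in these tables. Gene models were from GENCODE M21, an older release than the authors' on the same build. Python 3.11.15 with numpy 2.4.6, pandas 2.3.3, scipy 1.17.1 and matplotlib 3.10.9 was used. The submitters' processing notes also name STAR 2.5.0a and CASAVA 1.8.2. The tables held 1305107 significant pairs in Input and 1415135 in H3K27me3-RADIP, where 3 pairs are 0.000230% and 0.000212%. These counts are what passed the authors' filter and are not sequencing depth. The paper reports more raw reads for Input than for H3K27me3-RADIP. Without molecular identifiers, intervals cover counting error only.

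*Jarid2* and all lists were chosen with earlier results of these data known. Named genes were *Jarid2*, its nearest protein-coding neighbours, the PRC2 list, stem cell markers and the 3 RNAs with the most similar distances. Up to 5 other RNAs with the most pairs in the gene's bins were also named, though fewer were listed there. So were genes starting in the 10 bins with the most pairs outside the gene. Others were named after their values were seen. Alternatives were q-values up to 0.01, repeated positions counted once, bins in both tables, other scalings, other definitions of distance and of the gene, and other minimum numbers of pairs.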

Additional observations from a re-analysis of the deposited data

How the results depend on the processing

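Across 13 results and 40 alternatives, 37 kept their direction and their side of the threshold, or stayed within 1.5 times for counts, and none reversed. These include the sum of other RNAs in the *Jarid2* bins outside the gene. Its bins were chosen by listing, so its stability adds no support. The log2 ratio of the *Jarid2* pair share was no longer past the threshold over bins listed in both tables only (0.029, Fisher's exact test, p = 0.247), and its other alternatives gave 0.06 to 0.10. With bins of at least 20 pairs only, 92 bins were left in Input and 111 in H3K27me3-RADIP, since most bins hold fewer. The gain over 1 Mb ranged from 4.09 to 11.96 points. No paired analysis was possible because the authors merged all libraries of a condition, and for the same reason no single replicate could be left out. Bins under 9 *Jarid2* pairs were never listed, so a bin found in 1 table only may hold up to 8 pairs in the other.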
